A study of Mus musculus with 18 samples.

Results

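The genes described here encode the proteasome, the protease complex that degrades proteins tagged with ubiquitin, together with its activators, its inhibitor and its assembly chaperones. They were taken as every row of the expression table whose symbol starts with Psm, a letter from a to g and a digit. Of the 34082 rows, 53 matched. Of these, 48 are genes of the complex or its helpers, 4 are pseudogene rows (Psmb5-ps, Psmb6-ps, Psmb7-ps2 and Psme2b-ps) and 1 is Psmc3ip, a recombination factor that shares only the start of its symbol. All 53 rows reached 1 FPKM (fragments per kilobase of transcript, scaled to the depth of the library) in at least 2 libraries and so passed the filter for testing, as 24525 rows of the table did.

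The libraries were made from 7 thymocyte populations sorted from C57BL/6 mice at postnatal day 10, with about 10000 cells per population. There were 2 libraries each of DN1ab, DN1d and ImmV2, and 3 each of DN1e, DN1 ckit+, DN2 and DN4. DN marks thymocytes without CD4 and CD8, DN1 ckit+ cells carry the receptor Kit, and ImmV2 is a name the labels do not spell out. In the pairs tested here, ImmV2, DN1 ckit+ or DN2 served as the reference. No treatment or engineered allele is given. The design text speaks of biological replicates but does not tie them to separate mice, so the p-values rest on library-to-library spread, part of which may be technical.

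The 20S core of the proteasome is a barrel of alpha rings around beta rings, and 3 of the beta subunits cut proteins. In most cells these are Psmb5, Psmb6 and Psmb7. In cells of the immune system, and after interferon, Psmb8, Psmb9 and Psmb10 take their places and the complex is called the immunoproteasome, which trims peptides for MHC class I. Cortical epithelial cells of the thymus use Psmb11 in place of Psmb5 or Psmb8. The 19S cap, made of Psmc ATPases and Psmd subunits, recognises and unfolds the substrates.

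Each library listed between 34.8% and 53.6% of all rows at the lowest value of the table, 0.01 FPKM, so a gene at that value is only said to be listed at it. Of 9 thymocyte markers, 4 to 7 were at 1 FPKM or more in every library of a population. The summed level of 11 myeloid markers was 1226 to 1385 FPKM in DN1e and at most 165.5 FPKM elsewhere. Of the 11, 6 were at 1 FPKM or more in every DN1e library. The summed level of 8 B cell markers was 861 to 1256 FPKM in DN1d and at most 92.2 FPKM elsewhere. Igkc alone made up 843 and 1205 FPKM of this in DN1d 1 and DN1d 2. Of the 8, 3 were at 1 FPKM or more in both DN1d libraries. The part of these markers in the results below was not tested. In sorted bulk samples, fewer cells of a type and less RNA per cell cannot be told apart.

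Proteasome genes switched between clear signal and the lowest value even among libraries of the same population. Of the 48 genes, 6 were at 1 FPKM or more in all 18 libraries, against 460 of the 24525 genes tested. These were Psma2, an alpha ring subunit, Psmb5, the catalytic subunit with chymotrypsin-like activity, Psmc1 and Psmc5, ATPases of the cap, and Psmd3 and Psmd7, scaffold subunits of the cap. Psmc1 was the highest of the 6 by its median, at 7.41 FPKM at the lowest, 27 FPKM at the median and 47.9 FPKM at the highest of 18 libraries. Psma2 lay between 9.36 and 50.5 FPKM with a median of 19.8 FPKM. The other 42 genes were under 1 FPKM in at least 1 library, and 36 were listed at the lowest value in at least 1. A median proteasome gene was at 1 FPKM or more in 13 of 18 libraries, and a median tested gene in 6.

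**Figure D1:**
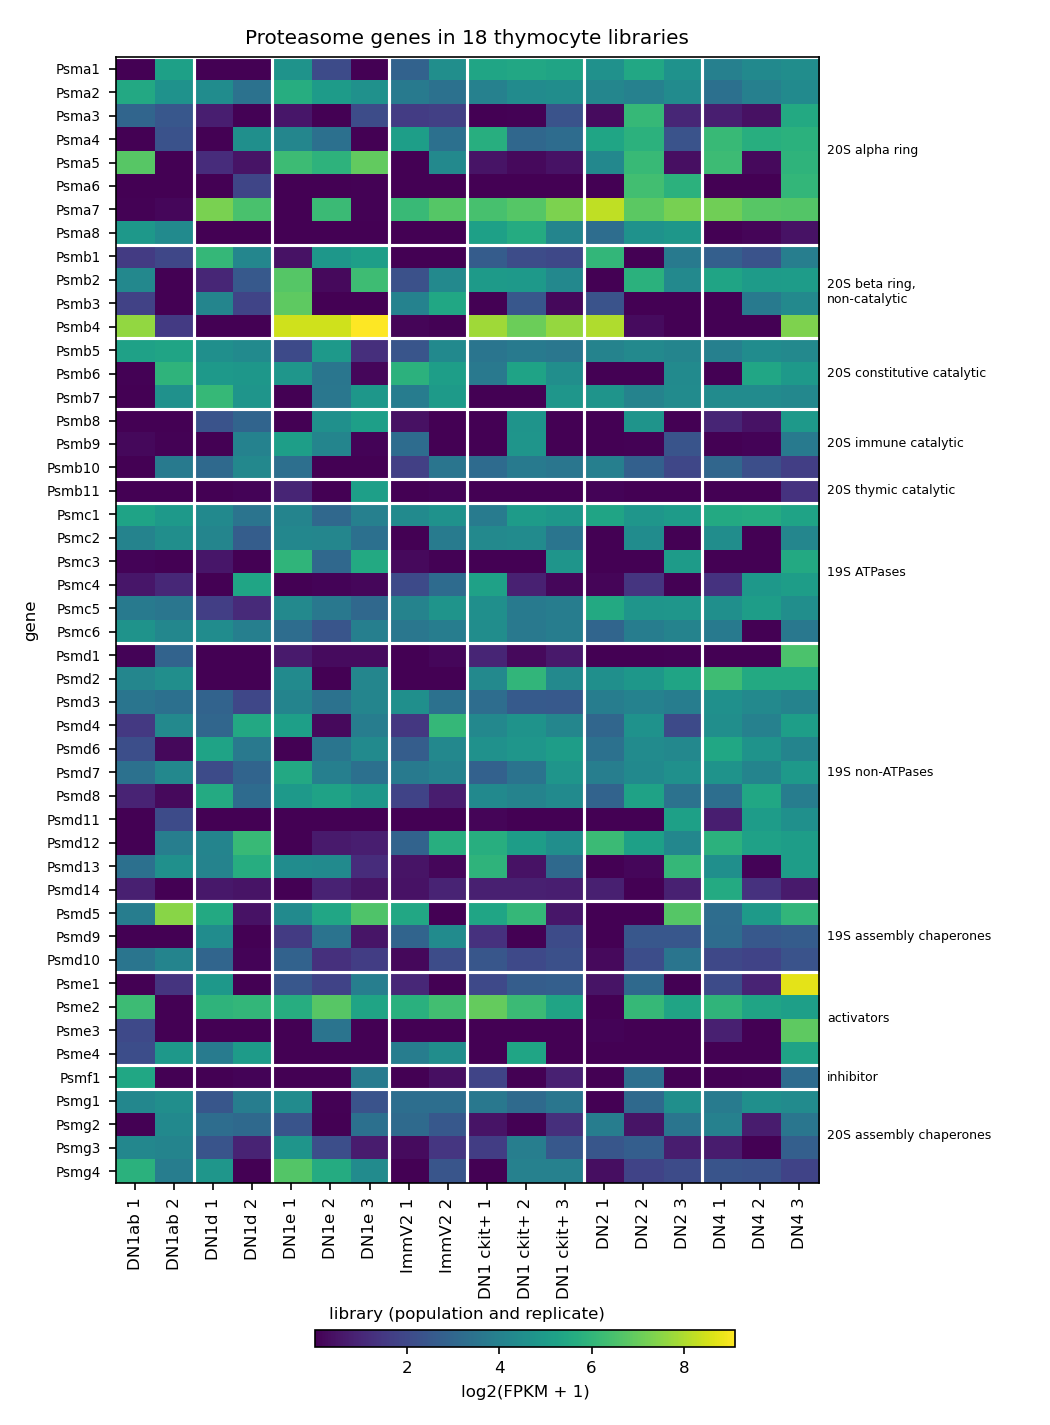
Level of the 48 proteasome genes (rows, grouped by role) in the 18 libraries (columns, grouped by population), as log2(FPKM + 1) on the colour scale. The rows of Psma2, Psmb5, Psmc1, Psmc5, Psmd3 and Psmd7 stay at 1 FPKM or more throughout, most other rows hold dark cells at or near the lowest value, and DN4 3 has the fewest dark cells.

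A library of DN4 stood apart. In DN4 3, 46 of the 48 genes were at 1 FPKM or more and 0 were listed at the lowest value. In the other 17 libraries between 24 (DN2 1) and 34 (DN1 ckit+ 3) genes were at 1 FPKM or more. DN4 1 and DN4 2 had 32 and 29. The median proteasome gene was at 22.4 FPKM in DN4 3 and at 2.41 to 12.7 FPKM elsewhere. Across all tested genes DN4 3 was also the highest library, with 42.8% at 1 FPKM or more, against 40.2% to 41.6% in the others. The libraries share a scale by rank, so this share could vary little. It cannot show whether the excess in DN4 3 goes beyond the library as a whole. Several genes were high in DN4 3 alone. Psme1, a subunit of the interferon-induced PA28 activator, was at 424 FPKM there and at 27.9 FPKM or less elsewhere. Psme3, which forms the nuclear PA28 gamma activator, was at 114 FPKM there and at 10.5 FPKM or less elsewhere. Psmd1, a large scaffold subunit of the cap, was at 92.3 FPKM there and at 6.55 FPKM or less elsewhere. The medians for DN4 below, and its tests of Psma8 and Psmd2, are also given without this library.

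**Figure D2:**
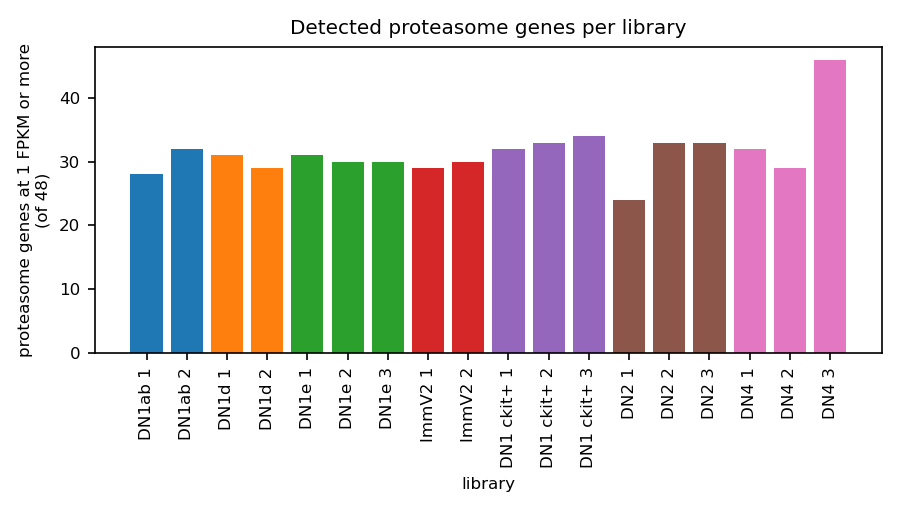
Number of the 48 proteasome genes at 1 FPKM or more in each library (bars, coloured by population). DN4 3 reaches 46, and the other 17 libraries lie between 24 and 34.

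Differences among the 7 populations were tested with limma's moderated F test on log2(FPKM + 1), adjusted by the Benjamini-Hochberg method over all genes. Of the 53 members, 3 passed at an adjusted p under 0.05, namely Psma8, Psma7 and Psmd2, where 1.4% of all tested genes did. At an unadjusted p under 0.05 there were 8 of 53, where 11.3% of all tested genes were. The 3 genes belong to the alpha ring and the cap, and 0 of the catalytic subunits passed, adjusted or not.

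Psma8 encodes an alternative alpha subunit known from the testis, where it takes the place of its paralogue Psma7 in the core. It was at clear levels in DN1ab, DN1 ckit+ and DN2 and at or near the lowest value in the other populations. Psma8 was at 27.8 and 19.4 FPKM in DN1ab, at 35.4, 47.4 and 16.6 FPKM in DN1 ckit+ and at 8.57, 23.9 and 27.1 FPKM in DN2. In DN1d, DN1e and ImmV2 every library listed it at the lowest value, and DN4 had 0.01, 0.101 and 0.389 FPKM. The 8 libraries of the first 3 populations thus lay at 8.57 FPKM or more and the other 10 at 0.389 FPKM or less, without overlap.

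The F test gave Psma8 an adjusted p of 0.00272 (limma), rank 53 of the 24525 genes, and the call held under every alternative tried, with adjusted p up to 0.0139 (limma). Among pairs, Psma8 was higher in DN1 ckit+ than in ImmV2 (adjusted p = 0.0251, limma), where 0.33% of tested genes were called. It was lower in DN1d than in DN1 ckit+ (adjusted p = 0.0217, limma, background 0.363%) and lower in DN1e than in DN1 ckit+ (adjusted p = 0.0076, limma, background 0.693%). No fold is given, since the lower population was listed at the lowest value in each of these pairs. Psma8 was the only member called in any of the 11 pairs tested.

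The pairs rest on few libraries. The call against ImmV2 ended without ImmV2 1, ImmV2 2, DN1 ckit+ 1 or DN1 ckit+ 2 (adjusted p = 0.0694, 0.0536, 0.0752 and 0.0644, limma). That between DN1d and DN1 ckit+ ended without DN1d 1, DN1d 2, DN1 ckit+ 1 or DN1 ckit+ 2 (adjusted p = 0.0522, 0.0584, 0.0677 and 0.0668, limma), while that between DN1e and DN1 ckit+ held without any 1 library. The first also ended with the values as deposited and with replicate number as a block (adjusted p = 0.074 and 0.0759, limma), and so did the second (adjusted p = 0.0777 and 0.064, limma). With only the libraries of each pair in the fit, Psma8 was not called in any of the 3 pairs (adjusted p = 0.186, 0.181 and 0.0997, limma).

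The same direction appeared in pairs that did not pass. In DN4 against DN2 the log2 difference of Psma8 on the log2(FPKM + 1) scale was -4.03 ± 0.81 SE (adjusted p = 0.124, limma, background 0.0815%). Without DN4 3 it was -4.16 (adjusted p = 0.144, limma). Since DN4 was near the lowest value, the size depends on the scale, from -2.17 with a pseudocount of 5 FPKM to -7.92 with the values as deposited. In DN1ab and DN2 against ImmV2 the adjusted p was 0.0603 and 0.0957 (limma, background 0.396% and 0.188%). DN1ab and DN2 lay near DN1 ckit+, with log2 differences of -0.37 ± 0.91 SE and -0.74 ± 0.81 SE (adjusted p = 1 and 0.985, limma, background 0.298% and 0.0612%). The receptor chain gene Cd3e, picked after its values were seen, was split between the same libraries in the opposite way. It was at 1.56 FPKM or less in the 8 libraries with Psma8 and at 16.6 to 211 FPKM in the other 10, and whether the 2 genes are linked was not tested. The other CD3 chains did not share this split. Cd3d was at 17.8 FPKM in DN2 3 and at 1.68 FPKM in DN4 2. Cd3g was at 11.8 and 11.4 FPKM in DN1ab, 152 FPKM in DN2 2 and 0.01 FPKM in DN4 2.

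**Figure D3:**
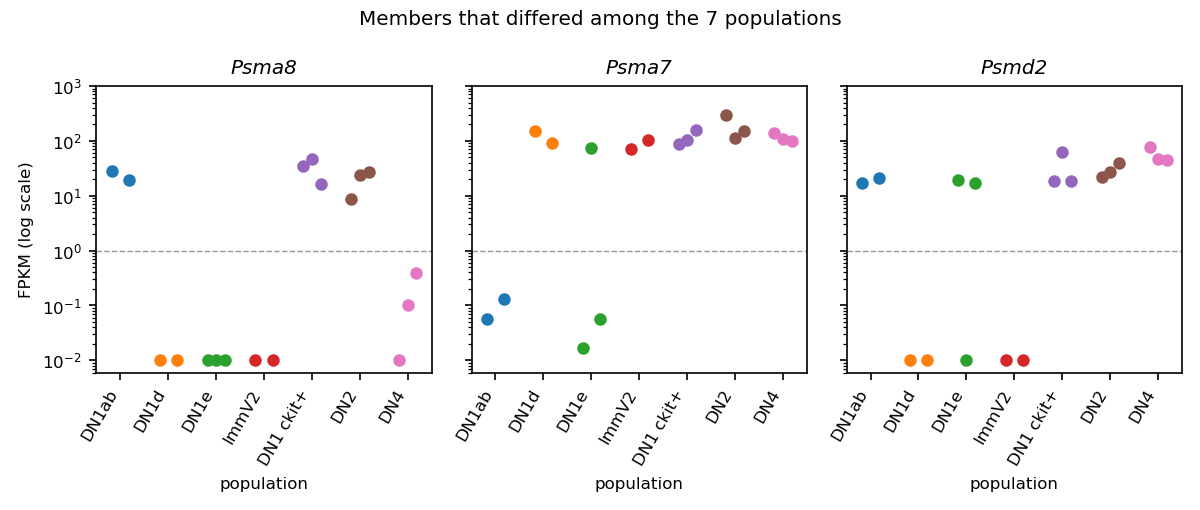
FPKM on a log scale of Psma8, Psma7 and Psmd2 in each library (points) by population, with a dashed line at 1 FPKM. Psma8 is at 8.57 FPKM or more in DN1ab, DN1 ckit+ and DN2, Psma7 is under 1 FPKM in DN1ab and in 2 DN1e libraries, and Psmd2 is at the lowest value in DN1d, ImmV2 and DN1e 2.

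Psma7, the alpha subunit of the standard core, had the highest median of the alpha ring, at 102 FPKM. It was at 0.0564 and 0.133 FPKM in DN1ab and at 0.0169, 73.7 and 0.0556 FPKM in DN1e. The DN1d libraries had 153 and 89.6 FPKM, those of ImmV2 71.5 and 104 FPKM, and those of DN1 ckit+ 86.8, 104 and 157 FPKM. In DN2 it was at 297, 113 and 152 FPKM and in DN4 at 141, 107 and 101 FPKM. Both DN1ab libraries lay below every library outside DN1e, and DN1e itself was split, with DN1e 2 at the level of the other populations.

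The F test gave Psma7 an adjusted p of 0.0439 (limma). The call ended without any 1 library other than DN1e 2, with adjusted p from 0.0503 to 0.124 (limma), and without DN1e 2 the adjusted p was 0.00164 (limma). In DN1ab against DN1 ckit+ the log2 difference was -6.70 ± 1.5 SE (adjusted p = 0.0818, limma), and in DN1ab against ImmV2 it was -6.32 ± 1.64 SE (adjusted p = 0.147, limma). The first of these ran from -4.53 with a pseudocount of 5 FPKM to -10.34 with the values as deposited. DN1ab was thus the 1 population where both libraries carried Psma8 and were under 1 FPKM for Psma7, while DN1 ckit+ and DN2 carried both genes. How reads that match both paralogues were assigned is not given in the sources used here.

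Promoter sequences from RefSeq (build GRCm38.p6, windows of 300 bases around the start) were available for 40 of the 48 genes. Those of Psma7, which passed the F test, and of Psmc1, which was at 7.41 FPKM or more in all 18 libraries, are shown as an example of a variable and a steady member. Capitals mark CCAAT or its reverse ATTGG, and the ETS-type motif CCGGAAGT or its reverse ACTTCCGG, which do not overlap here. The Psma7 window lies on the minus strand at chr2:180042415-180042714 and holds 1 CCAAT match and 0 ETS-type matches. The Psmc1 window lies on the plus strand at chr12:100109952-100110251 and holds 1 match of each.
Psma7: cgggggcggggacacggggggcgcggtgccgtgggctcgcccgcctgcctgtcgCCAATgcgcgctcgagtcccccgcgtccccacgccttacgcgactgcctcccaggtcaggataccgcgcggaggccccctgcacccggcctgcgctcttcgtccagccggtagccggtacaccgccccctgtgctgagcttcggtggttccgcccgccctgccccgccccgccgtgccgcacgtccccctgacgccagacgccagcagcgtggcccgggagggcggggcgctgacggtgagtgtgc
Psmc1: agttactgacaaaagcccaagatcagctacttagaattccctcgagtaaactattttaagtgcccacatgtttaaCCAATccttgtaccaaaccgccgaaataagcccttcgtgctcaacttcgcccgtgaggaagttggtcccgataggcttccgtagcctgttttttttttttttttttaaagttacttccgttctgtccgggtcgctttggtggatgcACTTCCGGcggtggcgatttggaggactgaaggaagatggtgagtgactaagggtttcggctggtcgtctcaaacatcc

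The ETS-type motif stood in 10 of the 43 windows of proteasome genes (23.3%) and in 3.89% of all 32851 windows. CCAAT stood in 32.6% and 37.4%. The letters TGACNNNGC, the core of the element bound by Nfe2l1, which drives proteasome genes when the complex is inhibited, stood in 14% and 12.4%. A pair of GAAA runs with any 2 bases between them, or its reverse, a pattern read by interferon regulatory factors, stood in 11.6% and 3.44%, in windows of Psmb3, Psmd4, Psmd9, Psme1 and Psmg4. Both strands were searched, a match is a description of these letters alone, and all windows include genes of every class.

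Psmd2, a large scaffold subunit of the cap, was the third member to pass the F test (adjusted p = 0.0471, limma). All libraries of DN1d and ImmV2 listed it at the lowest value. It was at 17.1 and 21.4 FPKM in DN1ab, at 18.4, 63.4 and 18.6 FPKM in DN1 ckit+, at 22.1, 27.4 and 39.3 FPKM in DN2 and at 77.4, 45.8 and 45.3 FPKM in DN4. The DN1e libraries were split, with 19.7 FPKM in DN1e 1, 17.3 FPKM in DN1e 3 and the lowest value in DN1e 2. DN1d and ImmV2 thus lay below every library of DN1ab, DN1 ckit+, DN2 and DN4. Among pairs, DN4 against ImmV2 came nearest (adjusted p = 0.0714, and 0.128 without DN4 3, limma, background 0.249%), and 0 pairs passed for Psmd2. Its F test call ended without any 1 library outside DN1e, with adjusted p from 0.0549 to 0.1 (limma).

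The remaining alpha ring genes varied from library to library. Psma5 was at 73.9, 58.6 and 119 FPKM in DN1e and at 0.408, 0.188 and 0.372 FPKM in DN1 ckit+, without overlap, and did not pass (log2 difference 5.94 ± 1.87 SE, adjusted p = 0.205, limma). With only those 6 libraries in the fit it passed narrowly (adjusted p = 0.0497, limma). Psma6 had the lowest median of the ring and was listed at the lowest value in 11 libraries. It was at 81.2 FPKM in DN2 2, 56.5 FPKM in DN2 3 and 64 FPKM in DN4 3. Psma1, Psma3 and Psma4 reached 43.2, 68.3 and 68.8 FPKM and were under 1 FPKM in 4, 10 and 3 libraries.

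Of the non-catalytic beta subunits, Psmb4 had the highest level of any proteasome gene. It was at 345, 345 and 548 FPKM in DN1e, above every other library, and at 225, 131 and 203 FPKM in DN1 ckit+. It was at 195 and 1.92 FPKM in DN1ab, at 256, 0.219 and 0.01 FPKM in DN2, and at 0.01, 0.01 and 162 FPKM in DN4. Both libraries of DN1d listed it at the lowest value, and ImmV2 had 0.105 and 0.0368 FPKM. The log2 difference of DN1e from ImmV2 was 8.56 ± 2.37 SE and did not pass (adjusted p = 0.145, limma, background 0.591%), and the F test gave an adjusted p of 0.194 (limma). Psmb3 had the lowest median of this group, 2.62 FPKM, and was listed at the lowest value in 6 libraries. Psmb1 reached 65.6 FPKM in DN1d 1 and Psmb2 103 FPKM in DN1e 1, and each was under 1 FPKM in 4 libraries.

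The constitutive catalytic subunits were at 1 FPKM or more in most libraries. Psmb5 was at 36 and 39.2 FPKM in DN1ab. The DN1d libraries had 22.5 and 19.7 FPKM, the DN1e libraries 3.11, 28.9 and 1.35 FPKM, and the ImmV2 libraries 4.35 and 18.9 FPKM. It was at 10.6, 12.3 and 11.2 FPKM in DN1 ckit+, 16 to 18.6 FPKM in DN2 and 14.6 to 20.7 FPKM in DN4. DN1ab was above the libraries of every other population for Psmb5. Psmb6, with caspase-like activity, reached 59.6 FPKM with a median of 24.1 FPKM, and was under 1 FPKM in 5 libraries: DN1ab 1, DN1e 3, DN2 1, DN2 2 and DN4 1. Psmb7, with trypsin-like activity, reached 68.5 FPKM with a median of 19.9 FPKM, and was listed at the lowest value in 4: DN1ab 1, DN1e 1, DN1 ckit+ 1 and DN1 ckit+ 2.

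The immune subunits were under 1 FPKM in 25 of 54 values, and the constitutive ones in 9 of 54. Psmb8, the partner of Psmb5, reached 4.05 and 6.67 FPKM in the DN1d libraries, 0.01, 22.7 and 34.7 FPKM in those of DN1e, and 0.345 and 0.01 FPKM in those of ImmV2. Both DN1ab libraries listed it at the lowest value. It was at 25 FPKM in DN1 ckit+ 2 and at 25.5 FPKM in DN2 2 and listed at the lowest value in the other libraries of both populations, and at 0.927, 0.361 and 28.4 FPKM in DN4. DN1 ckit+, DN2 and DN4 thus each had 1 library at 1 FPKM or more.

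Psmb9, the partner of Psmb6, was at 33.8, 16.7 and 0.0692 FPKM in DN1e, with 0.01 and 15.3 FPKM for DN1d and 8.27 and 0.01 FPKM for ImmV2. It was at 0.149 and 0.0432 FPKM in DN1ab. It was at 25.7 FPKM in DN1 ckit+ 2, 4.2 FPKM in DN2 3 and 12.6 FPKM in DN4 3, and under 1 FPKM in the other libraries of those 3 populations. Psmb10, the partner of Psmb7, was the most regular of the set, at 1 FPKM or more in 15 libraries with a median of 7.35 FPKM and a highest value of 17.9 FPKM in DN1d 2. It was listed at the lowest value in DN1ab 1, DN1e 2 and DN1e 3. Of the 3 immune and the 3 constitutive subunits, 0 passed the F test, also 0 at an unadjusted p under 0.05, and 0 were called in any pair. Psmb7 in DN1d against DN1 ckit+ had a log2 difference of 3.82 ± 1.66 SE that did not pass (adjusted p = 0.537, limma).

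**Figure D4:**
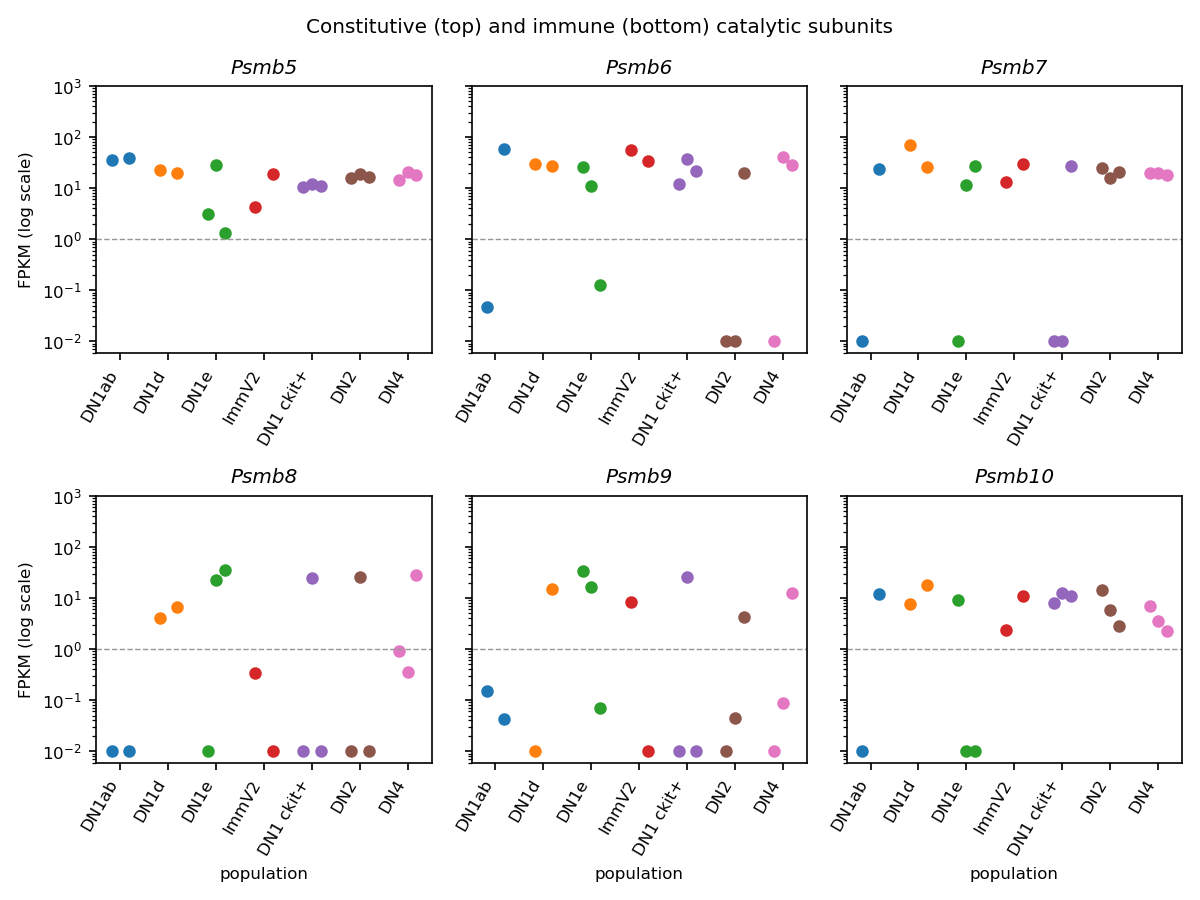
FPKM on a log scale of the constitutive subunits Psmb5, Psmb6 and Psmb7 (top) and the immune subunits Psmb8, Psmb9 and Psmb10 (bottom) in each library (points) by population, with a dashed line at 1 FPKM. Psmb5 is at 1 FPKM or more in all 18 libraries and Psmb10 in 15, and Psmb8 and Psmb9 are each at 1 FPKM or more in 7 of 18 libraries.

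Within a library, constitutive subunits mostly exceeded their immune partners in FPKM, a level per transcript length. In part this came from libraries where only the constitutive partner was at 1 FPKM or more. The mean log2(FPKM + 1) of the 3 immune subunits minus that of the 3 constitutive ones was below 0 in 16 of 18 libraries, with a median of -1.54 and a range from -4.02 in DN1ab 2 to 1.39 in DN1 ckit+ 2. The other library above 0 was DN1e 1, at 0.55. Psmb8 exceeded Psmb5 in 4 libraries, DN1e 3, DN1 ckit+ 2, DN2 2 and DN4 3. These 4 are among the 7 libraries where both were at 1 FPKM or more, and in the other 11 only Psmb5 was. Psmb9 exceeded Psmb6 in 4, DN1ab 1, DN1e 1, DN1e 2 and DN2 2, and in DN1ab 1 and DN2 2 both were under 1 FPKM. It was equal to it in 2, where both were listed at the lowest value. Psmb9 and Psmb6 were both at 1 FPKM or more in 7 libraries, and only Psmb6 was in 6. Psmb10 exceeded Psmb7 in 3, DN1e 1, DN1 ckit+ 1 and DN1 ckit+ 2, and in each of these Psmb7 was listed at the lowest value. Both were at 1 FPKM or more in 12 libraries, and only Psmb7 was in 2.

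No population was above 0 in all of its libraries, and DN1ab, DN1d, ImmV2, DN2 and DN4 were below 0 in all of theirs. The difference was 0.55, -1.13 and -0.32 in DN1e and -1.34, 1.39 and -3.10 in DN1 ckit+. It was -1.69 and -4.02 in DN1ab, -3.38 and -0.92 in DN1d, -2.24 and -3.60 in ImmV2, -1.62, -0.26 and -2.85 in DN2, and -1.47, -3.82 and -1.02 in DN4. The pooled standard deviation within populations was 1.53 on this log2 scale. DN1e 1 and DN1e 3 had 2 of the 4 highest values. The constitutive means of these 2 libraries were 2.28 and 2.07, against a median of 4.04 over 18 libraries. Their immune means were 2.82 and 1.76, against a median of 1.60. No test was made of this score, since its members were chosen with earlier results known.

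Psmb11, the catalytic subunit of the thymic epithelium, was at 34.2 FPKM in DN1e 3, 1.53 FPKM in DN4 3 and 0.937 FPKM in DN1e 1, and at 0.0794 FPKM or less in the other 15 libraries. The other 9 markers of cortical thymic epithelium summed to 8.09 FPKM in DN1e 3, to 135 FPKM in DN1e 1, of which Dll4 made up 107 FPKM, and to 66.5 FPKM in DN1e 2. They summed to 32.9 and 52.2 FPKM in the DN1d libraries and to 2.11 to 23.3 FPKM in the other 13. The library with the highest Psmb11 thus lay within the range of these 13. In DN1e 3 the defining genes Foxn1 and Prss16 were at 0.0263 FPKM and at the lowest value. Ly75, at 1 FPKM or more in 16 libraries, was at 6.72 FPKM there. In DN4 3, second for Psmb11, Prss16 was at 12.4 FPKM, against 0.466 FPKM or less in every other library. The source of Psmb11 was not tested. Psmb11 did not pass in DN1e against DN1 ckit+ (log2 difference 2.02 ± 0.88 SE, adjusted p = 0.409, limma).

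Of the cap genes, the non-ATPase subunits were compared between DN4 and ImmV2 and DN2 apart from the ATPases. This role and these pairs were singled out from all roles and the 11 pairs tested. Genes that share libraries are not independent replicates, and the counts of signs were not tested. All 11 non-ATPase subunits had a positive log2 difference in DN4 against ImmV2, with a median of 1.83 against 0.01 over all tested genes. Of the 11, 0 were called, where 0.249% of tested genes were. The same 11 were positive in DN4 against DN2, with a median of 0.90 against 0. Again 0 were called (background 0.0815%), and both comparisons use the same DN4 libraries. Without DN4 3, 10 of the 11 were tested, all 10 stayed positive in both comparisons, and the medians were 1.78 and 0.75. Against ImmV2, 9 of 11 were positive in DN1 ckit+ (median 0.60) and 7 in DN2 (median 0.54). In DN1ab, DN1d and DN1e, 4, 6 and 6 were. Of the 6 ATPases, 5 were positive in DN4 against ImmV2, with a median of 0.98, and 4 without DN4 3, with a median of 0.38. In DN4 against DN2, 4 of 6 were positive, with a median of 0.31, and 3 without DN4 3, with a median of 0.17. In the alpha ring, 8 of 8 genes were positive in DN4 against ImmV2 (median 0.57), but only 2 of 8 in DN4 against DN2 (median -0.44). Without DN4 3, 7 of 8 were positive against ImmV2 (median 0.28) and 1 of 8 against DN2 (median -0.65). The reference populations include ImmV2 1 and DN2 1, with the most rows of all libraries at the lowest value, 53.3% and 53.6%. What part this had in the differences was not tested. Over all 53 members the median in DN4 against ImmV2 was 0.86, with 38 positive, and without DN4 3 it was 0.42, with 31 of 51 positive. The median over all members was thus smaller without the library that stood apart, and that of the non-ATPase subunits changed little.

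Named cap subunits show how uneven this was. Psmd3, which links the lid to the base, was at 23, 18.7 and 15.9 FPKM in DN4 and at 22.4 and 9.64 FPKM in ImmV2. Psmd12, another lid subunit, was at 57.4, 36.3 and 32.9 FPKM in DN4 and at 6.42 and 51.5 FPKM in ImmV2, and both groups overlapped. In DN1e it was at 0.01, 0.6 and 0.715 FPKM against 50.9, 32.2 and 21.7 FPKM in DN1 ckit+, a log2 difference of -4.60 ± 1.14 SE that did not pass (adjusted p = 0.0868, limma). Psmd11, the lowest by median, was listed at the lowest value in 12 libraries and was at 0.724, 31.5 and 23.1 FPKM in DN4. Psmd8, a lid subunit, had 0.882 and 0.18 FPKM in the DN1ab libraries, 2.62 and 0.656 FPKM in those of ImmV2, and 6.45 to 45.9 FPKM in the other 14 libraries (F test adjusted p = 0.193, limma). Psmd4, a ubiquitin receptor, was at 1 FPKM or more in 17 libraries, Psmd6 in 16 and Psmd13 in 12. Psmd14, the deubiquitinase of the lid, was at 46.9 FPKM in DN4 1 and at 1.45 FPKM or less in every other library.

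Among the ATPases, Psmc1 was at 45.9, 47.9 and 37.6 FPKM in DN4 and at 19.6 and 23.8 FPKM in ImmV2, without overlap. It was also at 38.8 FPKM in DN2 1 and 37.5 FPKM in DN1ab 1. In DN4 against ImmV2, 0 of the 6 ATPases were called, where 0.249% of tested genes were. At an unadjusted p under 0.05 (limma) there were also 0. Psmc5 had 2.25 and 1.12 FPKM in the DN1d libraries and 7.54 to 44.9 FPKM in the other 16 libraries. DN1d against ImmV2 did not pass for Psmc5 (log2 difference -3.01 ± 1.03 SE, adjusted p = 0.464, limma), and 0 members were called in that pair, where 0.277% of tested genes were. Psmc3 was at 61.5, 7.43 and 44.8 FPKM in DN1e, at 26.3 FPKM in DN1 ckit+ 3, 31.1 FPKM in DN2 3 and 45.7 FPKM in DN4 3, and at 0.466 FPKM or less in the other 12 libraries. Psmc2 was at 5.52 to 21.8 FPKM in 14 libraries and listed at the lowest value in 4. Psmc6 was at 4.26 FPKM or more in 17 libraries and at the lowest value in DN4 2, and Psmc4 was under 1 FPKM in 9. Of the chaperones that assemble the cap, Psmd5 reached 178 FPKM in DN1ab 2 and Psmd10, which is also called gankyrin, reached 16.4 FPKM there. Psmd9, another of them, reached 20.8 FPKM in DN1d 1 and was under 1 FPKM in 6 libraries.

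None of the 4 activators passed the F test or was called in a pair. Psme2, the partner of Psme1 in PA28, was at 34.5 to 124 FPKM in 16 libraries and listed at the lowest value in DN1ab 2 and DN2 1. In these 2 libraries the pseudogene row Psme2b-ps was at 98.8 and 12.1 FPKM. It was at 19.4 FPKM in DN1d 2 and 14.4 FPKM in ImmV2 1 as well, where Psme2 was at 64.5 and 53.4 FPKM, and how reads matching both were assigned is not given in the sources used here. Psme4, the nuclear activator PA200, had 12.8 and 31 FPKM in the DN1d libraries and 13.4 and 21.2 FPKM in those of ImmV2. Every DN1e and DN2 library listed it at the lowest value, and DN1e against ImmV2 did not pass (adjusted p = 0.391, limma). Psmf1, an inhibitor of the 20S core, was under 1 FPKM in 13 libraries and reached 42.4 FPKM in DN1ab 1.

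Among the chaperones that assemble the 20S core, Psmg1 was at 1 FPKM or more in 16 libraries with a median of 11.2 FPKM. Psmg2 and Psmg3 were at 1 FPKM or more in 12 libraries each and reached 19.1 and 25.9 FPKM. Psmg4 was at 100, 47.7 and 20 FPKM in DN1e, at 55.2 and 13.6 FPKM in DN1ab and at 0.01 and 4.3 FPKM in ImmV2. Its log2 difference between DN1e and ImmV2 was 4.34 ± 1.51 SE (adjusted p = 0.297, limma). Pomp, the maturation factor of the core, is no member by symbol and was at 0.04, 190 and 128 FPKM in DN1e and 0.01, 0.382 and 0.533 FPKM in DN1 ckit+. In the other populations it ran from 0.01 FPKM in DN2 1 to 98.8 FPKM in DN4 1, with 73.2 FPKM in DN1d 1. It did not pass the F test (adjusted p = 0.66, limma).

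Of 21 other genes of the ubiquitin-proteasome pathway, 0 were called in any of the 11 pairs and 0 in the F test. Their median log2 difference in DN4 against DN2 was 1.42, with 15 of 21 positive, and without DN4 3 it was 0.14, with 12 of 21 positive. Uba1, the main ubiquitin-activating enzyme, was at 88.1, 98.6 and 121 FPKM in DN4 and at 46 FPKM or less in every other library. It was picked after its values were seen. Nfe2l1 reached 120 FPKM in ImmV2 2 and was listed at the lowest value in 4 libraries.

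Of 13 genes of antigen processing and the interferon response, 0 were called in any pair and 0 in the F test. In RefSeq, Psmb9, Tap1, Psmb8 and Tap2 are neighbours in that order in the MHC region. Tap1, a chain of the peptide transporter, was at 103 FPKM in DN1ab 1 and 241 FPKM in DN1e 3 and at 11.7 FPKM or less elsewhere. In DN1ab 1, Psmb8 and Psmb9 were both under 1 FPKM, while in DN1e 3 Psmb8 had its highest value, 34.7 FPKM, and Psmb9 was at 0.0692 FPKM. Tap2 was under 1 FPKM in 13 libraries, and Tapbp, which ties the transporter to MHC class I, was at 1 FPKM or more in 16 with a median of 6.88 FPKM. Irf1, a factor of the interferon response, reached 19.2 FPKM, and Nlrc5, which drives MHC class I genes, reached 16.8 FPKM. B2m, the light chain of MHC class I, ranged from 0.01 to 508 FPKM, with 490, 28.1 and 508 FPKM in DN1 ckit+.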

How the data were processed

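RNA-seq libraries of 18 sorted samples were analysed as deposited. The deposited values are log2 FPKM for each gene symbol. Per the submitters' processing notes, Bowtie and build mm8 were used. The sources used here do not give the aligner's version, the annotation, the quantifier or how transcripts became 1 row a gene. Per the labels' protocols, cells were lysed directly, RNA was amplified with NuGEN Ovation chemistry before library preparation. The table holds no counts, so depth is unknown and no counting interval can be given. The value at rank 1000 from the top lay between 5.73 and 5.78 log2 FPKM in every library, so the libraries share a scale by rank and levels partly reflect ranks.

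Values were turned back to FPKM, and log2(FPKM + 1) was tested with limma 3.58.1 in R 4.3.3 (trend, two-sided, all 18 libraries in 1 fit of population means). The filter kept genes that reached 1 FPKM in 2 libraries or more. Calls needed an adjusted p below 0.05 (Benjamini-Hochberg over all genes) and, in the 11 pairs, a log2 difference of 1 or more in size. The script was tested on simulated data drawn from normal distributions. These lack the many values at 0.01 FPKM of the real table, so that test cannot show how calls behave with them. Alternatives were other pseudocounts, values as deposited, no filter, quantile normalization, median centring, a replicate block, only the libraries compared, and each library left out. The highest Spearman correlation between 2 libraries was 0.39, so none was a duplicate. Libraries of the same population were among these pairs, so replicates also agreed only weakly.

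Every row matching the symbol rule could be named. Described in full were Psmb5 to Psmb11, members that passed a test, and the members with the highest and lowest median in each role. The other members, and Cd3d, Cd3e, Cd3g, Uba1, Foxn1, Prss16, Ly75, Dll4 and Igkc, were picked after their values were seen. Of the other lists, Tap1, Tap2, Tapbp, B2m, Irf1, Nlrc5, Pomp and Nfe2l1 could be named. Members and lists were chosen with earlier results of these data known. Promoters and gene order came from RefSeq (GRCm38.p6), another build than mm8, so no other coordinates are given. One gene that the rule allowed is not reported here.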

Additional observations from a re-analysis of the deposited data

How the results depend on the processing

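Of the 53 members, 3 differed among the 7 populations. This count was 1 with a pseudocount of 5 FPKM, with the replicate block and without both ImmV2 1 and DN2 1 (chosen after seeing the data), and 1 to 3 when each library was left out. Psma8 passed in all 26 alternatives. Without a filter 1 member was called in DN1ab, DN2 and DN4 against ImmV2 and in DN4 against DN2, where 0 were before. The 1 call in DN1 ckit+ against ImmV2 went to 0 with the values as deposited, with the replicate block, with only the libraries compared and without both ImmV2 1 and DN2 1. The 1 call in DN1d against DN1 ckit+ went to 0 with the values as deposited, with the replicate block and with only the libraries compared. In DN1e against DN1 ckit+ the count stayed at 1, but with only the libraries compared the gene was Psma5. With each library left out, counts ran from 0 to 2 in DN1 ckit+ against ImmV2 and in DN1d against DN1 ckit+, from 1 to 2 in DN1e against DN1 ckit+, and from 0 to 1 in DN1ab, DN1e, DN2 and DN4 against ImmV2 and DN1ab against DN1 ckit+. They stayed at 0 in DN1d against ImmV2, DN2 against DN1 ckit+ and DN4 against DN2. The gains with a library left out came without DN1e 2, in Psma7 or Psmd2. A population left with 1 library was assumed to vary like the others. The cause of these changes was not tested.

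Calls over all genes moved as well, from 343 to between 146 and 464 in the F test, and in the pairs, for example, from 81 to between 0 and 280 in DN1 ckit+ against ImmV2. The median log2 difference of all genes was at most 0.119 in size under any setting. The immune minus constitutive difference was -3.35 with the values as deposited, -2.46 with a pseudocount of 0.1 FPKM, -0.92 with a pseudocount of 5 FPKM and -1.62 to -1.47 with each library left out. Libraries below 0 numbered 15 with the values as deposited, 15 to 16 with each library left out, and 14 of the 16 left without both ImmV2 1 and DN2 1. Psmb8 then exceeded Psmb5, and Psmb9 exceeded Psmb6, in 3 to 4 libraries, and Psmb10 exceeded Psmb7 in 2 to 3. Same-numbered libraries of different populations did not deviate together (correlations of -0.0164 to 0.0174 over 48 pairs). Since any 2 libraries agreed only weakly (Spearman correlation of 0.39 at most), this check cannot show whether the numbers pair them. Without counts, the depth behind a value at 0.01 FPKM is unknown.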

Other observations

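GENCODE vM21 (build GRCm38, not the build named for these data) lists 2 to 15 transcripts for each of the 48 proteasome genes. The 10 genes with 2 transcripts include Psma2, Psmb5, Psmc5 and Psmd7, which were at 1 FPKM or more in all 18 libraries, and also Psmb11, which was under 1 FPKM in 16. Psmd11, with 15 transcripts, was under 1 FPKM in 14 libraries, and Psme1, with 13, in 6. Across the 48 genes, the Spearman correlation between the number of transcripts and the number of libraries under 1 FPKM was 0.306, and across 20996 tested genes with a matching symbol it was -0.287. Genes are not independent replicates, all share the same libraries, and the relation was not tested.

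The 4 pseudogene rows were under 1 FPKM in 9 to 14 of the 18 libraries. Psme2b-ps was at 5 FPKM or more in 8 and Psmb6-ps in 4. Psmb6-ps was at 149 FPKM in DN1e 1, where Psmb6 was at 26.4 FPKM. Psmb5-ps reached 23.5 FPKM in DN1ab 2 and Psmb7-ps2 was at 16.6 FPKM in DN1ab 1 and 19.1 FPKM in ImmV2 2. Psmc3ip ranged from 0.01 to 15 FPKM.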
